A study of Mus musculus with 9 samples.

Results

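The miR-378 family of the mouse was described in B16F1 melanoma cells from its entries in a table of small RNA counts. Every entry listed under mmu-mir-378a, mmu-mir-378b, mmu-mir-378c or mmu-mir-378d was taken, which gave 4 hairpins of the 423 that held tags in the table. A tag is a sequence of at most 20 nt, listed with the hairpin it was assigned to and a start number, its offset from the first base of that hairpin. Reads of 17 to 35 nt are said to have been aligned, yet the table holds tags from 13 nt, and whether a tag is a whole read or a part of one is not given in the sources used here. Among the member tags 15 were under 17 nt, with 3.95% of the tag counts. The 4 members held 97 tags and 5 entries under a mature name, with 90241 counts in all. Tags with a start number under 35 were called 5p and all others 3p, and counts were summed by member and arm.

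Animal miRNAs are cut from hairpin precursors, and 1 strand of the duplex usually persists and guides silencing of mRNAs that pair with its seed, bases 2 to 8 from its 5′ end. The miR-378a hairpin lies within an intron of Ppargc1b, which encodes a coactivator of mitochondrial and oxidative metabolism, and the miRNA is known mainly for its part in energy metabolism. The other members carry close copies of the same core sequence at other loci.

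Cells of this established line, which derives from a skin melanoma of a C57BL/6J mouse (C57BL/6 in the strain label), were left unexposed or were exposed for 72 h to 5 mM L-Tyr, the amino acid precursor of melanin, or to the thymidine analog 5-Brd-2′-dU at 2.5 µg/mL. Small RNA was sequenced in 3 libraries per group. The comparisons asked whether either exposure was accompanied by a different miRNA level, and the same table also shows which arm and which tags of a hairpin were read. The methods call the replicates of the study independent in general, while the labels do not say that the 3 libraries of a group came from separate cultures, and the p-values measure the spread between these libraries.

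The mature sequences of 3 of the 4 members are shown because the position of the first base sets the seed, and the tags of the family differed in that position. They are given 5′ to 3′ as in RefSeq for the assembly GRCm38.p6, with the seed in capitals.
mmu-mir-378b: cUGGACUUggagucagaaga
mmu-mir-378c: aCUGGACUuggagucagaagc
mmu-mir-378d: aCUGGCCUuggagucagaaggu
The 3 seeds differ from each other. The mature sequence begins at offset 66 of the mmu-mir-378b hairpin, at offset 3 in mmu-mir-378c and at offset 15 in mmu-mir-378d, so by the start number the same core sequence is called 3p in mmu-mir-378b and 5p in the other 2 hairpins. In mmu-mir-378a the core lies on the 3p arm, and its 5p arm was the only arm of the family read opposite the core. Core tags are therefore all tags of the family except those of mmu-mir-378a 5p.

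The total count per library was between 144452 and 424122, so that 3 counts, the upper limit that a count of 0 allows, were worth 7.07 to 20.8 CPM of the total count. The melanocyte miRNAs mmu-mir-211 and mmu-mir-204 were counted in every library and took 0.542 to 2.86% of it. Replicate 3 of 5-Brd-2′-dU stood apart. The stromal and endothelial markers, of which 7 of 9 had counts in the series, took 20.3% of it, against 0.17 to 0.831% in the other 8 libraries. Of these counts mmu-mir-143 alone held 73907, or 19.4% of the library, against 0.0887 to 0.732% elsewhere. The erythroid (4 of 4 with counts) and leukocyte markers (4 of 5) stood at 0.542 and 0.11%, against at most 0.0595 and 0.00756% elsewhere. Of the hepatic and muscle markers, 1 of 2 and 3 of 9 had any count, with at most 66 counts in a library. The part of this library in the results on 5-Brd-2′-dU was not tested beyond leaving it out, and values without it are given below. Bulk counts do not separate fewer cells of a type from less RNA per cell.

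The family was abundant and its summed level was close in the 3 groups. Its share of the library was 3.84% ± 0.582 (SD, n = 3) in control cells, 4.05% ± 0.182 with L-Tyr and 3.54% ± 1.03 with 5-Brd-2′-dU. The lowest share, 2.76%, was that of replicate 3 of 5-Brd-2′-dU. The sum of mmu-mir-378a 3p, the guide-type arm, ranked 4th of 735 features with counts. mmu-mir-378a held 84.4% of the family's counts, mmu-mir-378c 13.7%, mmu-mir-378b 1.83% and mmu-mir-378d 0.0200%.

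For mmu-mir-378a 3p the counts were 7036, 13449 and 7041 in control cells, 5410, 8008 and 5803 with L-Tyr, and 4467, 14853 and 8339 with 5-Brd-2′-dU. Scaled by edgeR's TMM factors, its level was 34613, 30783 and 31204 CPM in control cells, 34606, 30048 and 31162 CPM with L-Tyr and 26005, 33742 and 29223 CPM with 5-Brd-2′-dU. The 3 groups overlapped, with the highest and the second highest library in the controls and L-Tyr and the lowest in 5-Brd-2′-dU. The opposite arm, mmu-mir-378a 5p, stood at 774 ± 223 CPM in control cells, 711 ± 73.8 CPM with L-Tyr and 763 ± 122 CPM with 5-Brd-2′-dU (SD, n = 3). Its lowest library was at 611 CPM and its highest at 1028 CPM, both of them controls.

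The level of mmu-mir-378c, listed as 5p, was 6818, 5647 and 4826 CPM in control cells, 3640, 4150 and 4436 CPM with L-Tyr, and 4384, 5570 and 6115 CPM with 5-Brd-2′-dU. All 3 libraries with L-Tyr lay below all 3 controls, and those with 5-Brd-2′-dU overlapped both groups. mmu-mir-378b 3p was at 954, 591 and 820 CPM in control cells, 377, 563 and 548 CPM with L-Tyr and 291, 1013 and 725 CPM with 5-Brd-2′-dU. Here too the libraries with L-Tyr lay below the controls, while those with 5-Brd-2′-dU spread over the range of both. The share of all arms that separated in this way was not determined, so it is not shown to be particular to these members. As given below, most tag counts of both arms are of sequences listed under other members as well. mmu-mir-378d had 18 counts in the 9 libraries, at most 7 in one, and was too low to be tested.

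**Figure D1:**
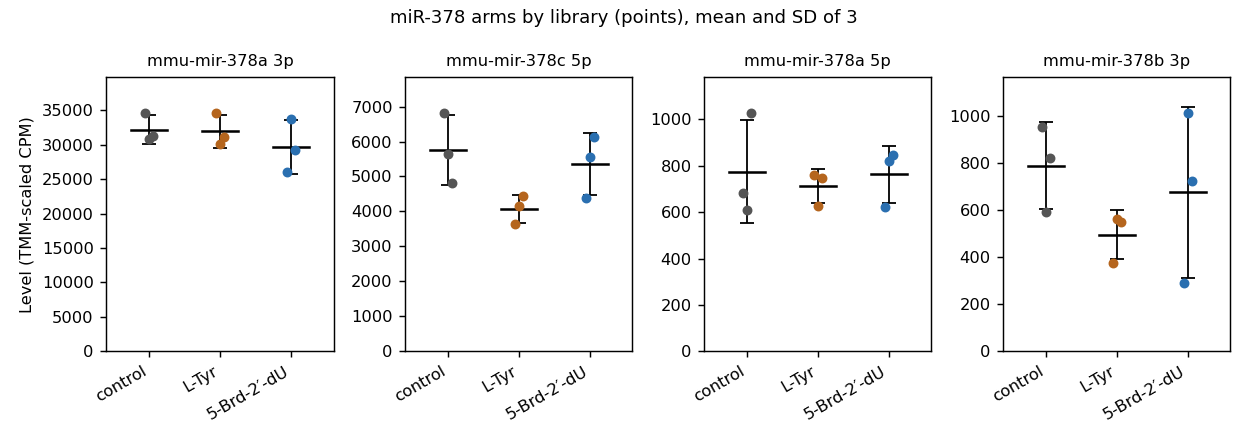
TMM-scaled CPM (y axis, from 0, a separate scale per panel) of 4 member arms in the 9 libraries, with the mean and SD of 3 libraries per group in black. The groups overlap for both arms of mmu-mir-378a, and for mmu-mir-378c and mmu-mir-378b all libraries with L-Tyr lie below all controls. The share of all arms that separate in this way was not determined.

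With edgeR's quasi-likelihood test and Benjamini-Hochberg adjustment over all hairpin arms, no member arm passed an adjusted p of 0.05 in any of the 3 comparisons. The tested arms included 4 of the 5 member arms with counts. Among all arms, 2.33% were called for L-Tyr relative to control (6 of 258), 3.56% for 5-Brd-2′-dU relative to control (10 of 281) and 2.39% between the exposures (6 of 251). Of the member arms, 1 had an unadjusted p under 0.05 in 1 comparison, and 35, 56 and 32 of all arms did in the comparisons in that order.

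For mmu-mir-378a 3p the log2 fold change was 0.012 ± 0.147 (SE) with L-Tyr relative to control (adjusted p = 0.987, edgeR), an interval of 2 SE from -0.28 to 0.31. It was -0.11 without replicate 1 of L-Tyr, and its sign is not settled. For 5-Brd-2′-dU relative to control it was -0.071 ± 0.203 (adjusted p = 0.910), with an interval from -0.48 to 0.33, -0.059 without replicate 3 of that group and 0.040 without its replicate 1. Between the exposures it was -0.053 ± 0.200 (adjusted p = 0.983). These intervals bound a change of this arm more narrowly than those of mmu-mir-378a 5p, which reached from -0.91 to 0.71 for L-Tyr and from -0.75 to 0.81 for 5-Brd-2′-dU relative to control.

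The widest departure from 0 relative to its error was that of mmu-mir-378c in the L-Tyr comparison. Its log2 fold change relative to control was -0.48 ± 0.21 (SE) with an unadjusted p of 0.0479, which did not pass after adjustment (adjusted p = 0.359, edgeR). Scaled by the total count alone the value was -0.34 ± 0.25, with an adjusted p of 0.678. Relative to L-Tyr, 5-Brd-2′-dU gave 0.45 ± 0.22 (adjusted p = 0.476), and 0.30 without replicate 3 of 5-Brd-2′-dU. mmu-mir-378b 3p gave -0.65 ± 0.44 for L-Tyr relative to control (adjusted p = 0.592) and -0.17 ± 0.52 for 5-Brd-2′-dU relative to control (adjusted p = 0.910). The median over all arms tested was -0.090 with L-Tyr and -0.053 with 5-Brd-2′-dU relative to control, and 0.083 between the exposures.

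**Figure D2:**
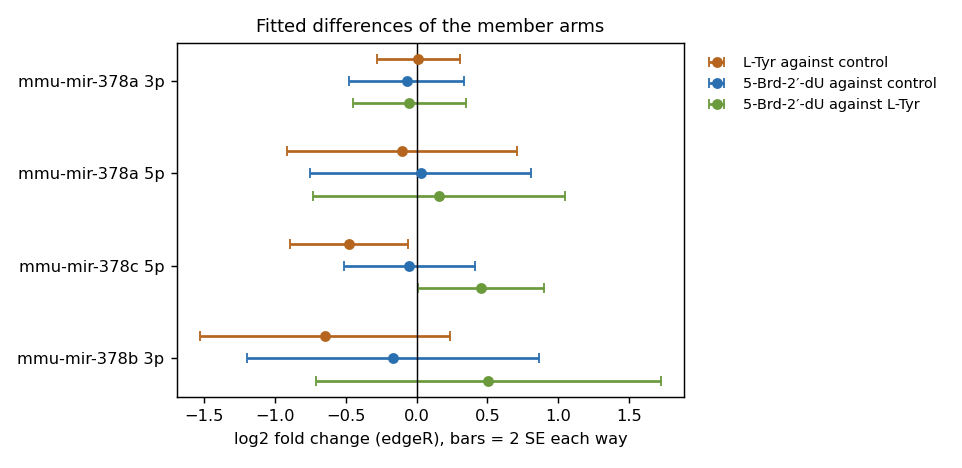
Fitted log2 fold change (x axis) of 4 member arms in the 3 comparisons, with bars of 2 SE to each side and a line at 0. The intervals are narrowest for mmu-mir-378a 3p and contain 0 everywhere except for mmu-mir-378c, at -0.48 for L-Tyr relative to control and 0.45 between the exposures, neither of which passed after adjustment.

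The counts of mmu-mir-378b and mmu-mir-378c were largely counts of sequences that mmu-mir-378a also holds. The table lists the same sequence under more than 1 hairpin, each time with its own count. The 97 tags were 68 distinct sequences, of which 20 appeared under more than 1 member. Such shared sequences made up 99.9% of the tag counts of mmu-mir-378c, 89.5% of those of mmu-mir-378b and 19.96% of those of mmu-mir-378a.

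The largest of them was a 20 nt sequence at start 42 of mmu-mir-378a and start 3 of mmu-mir-378c. Under mmu-mir-378a it had 1303, 2075 and 946 counts in control cells, 501, 901 and 685 with L-Tyr, and 626, 2078 and 1508 with 5-Brd-2′-dU. Under mmu-mir-378c the same libraries gave 1210, 2160 and 949, then 504, 926 and 689, then 703, 2059 and 1541 counts. The 2 listings were close in every library, and 49.7% of the 21364 counts were under mmu-mir-378a (95% Wilson interval 49.05 to 50.39%). A 19 nt sequence that occurs in 3 hairpins had 33.2% of its 2124 counts under mmu-mir-378a (31.3 to 35.3%), 32.0% under mmu-mir-378b and 34.8% under mmu-mir-378c. Intervals cover counting error only, since the reads carry no molecular identifiers.

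Among the shared sequences, 11 matched none of the hairpins exactly. Of these, 8 had 89 to 958 counts and were listed mostly under mmu-mir-378a, with 86.3 to 96.6% of their counts, and the other 3 had 15 to 24 counts, too few to tell an even split from an uneven one. A 20 nt sequence that differs from mmu-mir-378a by the substitution C20A (the hairpin's base, its position counted from 1 at the 5′ end of the tag, then the tag's base) had 91.9% of its 958 counts under mmu-mir-378a (89.9 to 93.4%), 4.91% under mmu-mir-378b and 3.24% under mmu-mir-378c. At its listed place it differed from mmu-mir-378b by A19G and C20A, and from mmu-mir-378c by C19G and C20A.

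Grouped by exact match, 64.7% of the family's tag counts were core sequences found only in the mmu-mir-378a hairpin, 24.3% were found in mmu-mir-378a and mmu-mir-378c, and 4.02% in mmu-mir-378a, mmu-mir-378b and mmu-mir-378c. No tag matched mmu-mir-378c alone. Tags that matched mmu-mir-378b alone were 3, with 113 counts, of which 34 were in replicate 1 of the controls and 77 in replicate 2 of 5-Brd-2′-dU. The entry under the mature name of mmu-mir-378b, whose sequence is 20 nt long, added 170 counts, with 22, 25 and 46 in control cells, 6, 21 and 0 with L-Tyr, and 1, 49 and 0 with 5-Brd-2′-dU. These uneven counts are too few to compare the groups.

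The entries under the mature names of mmu-mir-378c and mmu-mir-378d, which are 21 and 22 nt long and exceed the longest tag, had 0 counts. That of mmu-miR-378a-3p had 77 counts, 3 to 14 per library, and that of mmu-miR-378a-5p had 0. Why some of these names were counted and others not is not shown. Both tags listed under mmu-mir-378d, 9 counts each, differed from its hairpin at 2 positions (T3C and C6A in one, C2T and C6A in the other) and from the mmu-mir-378a and mmu-mir-378c hairpins at 1 position. A 15 nt tag with 311 counts matched mmu-mir-378d exactly, and it matched mmu-mir-378a as well and was listed there. The table thus held no tag that matched only mmu-mir-378d.

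Sequences found only in mmu-mir-378a stood at 25120 ± 1005 CPM in control cells, 25982 ± 3169 CPM with L-Tyr and 22519 ± 3472 CPM with 5-Brd-2′-dU (SD, n = 3), with overlapping groups. Those found in both mmu-mir-378a and mmu-mir-378c were at 12682, 9957 and 8434 CPM in control cells, 6429, 7234 and 7690 CPM with L-Tyr, and 7737, 9773 and 10723 CPM with 5-Brd-2′-dU. The libraries with L-Tyr were the lowest of the 9 in this class, and how often other sequences separated in this way was not determined. As a share of the core tags the class was 26.7% ± 3.51 in control cells, 19.6% ± 2.55 with L-Tyr and 26.4% ± 2.91 with 5-Brd-2′-dU. With the core tags of all members summed under mmu-mir-378a 3p, a choice made after seeing the data, the log2 fold change for L-Tyr relative to control was -0.070 ± 0.142 (SE, adjusted p = 0.916, edgeR).

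**Figure D3:**
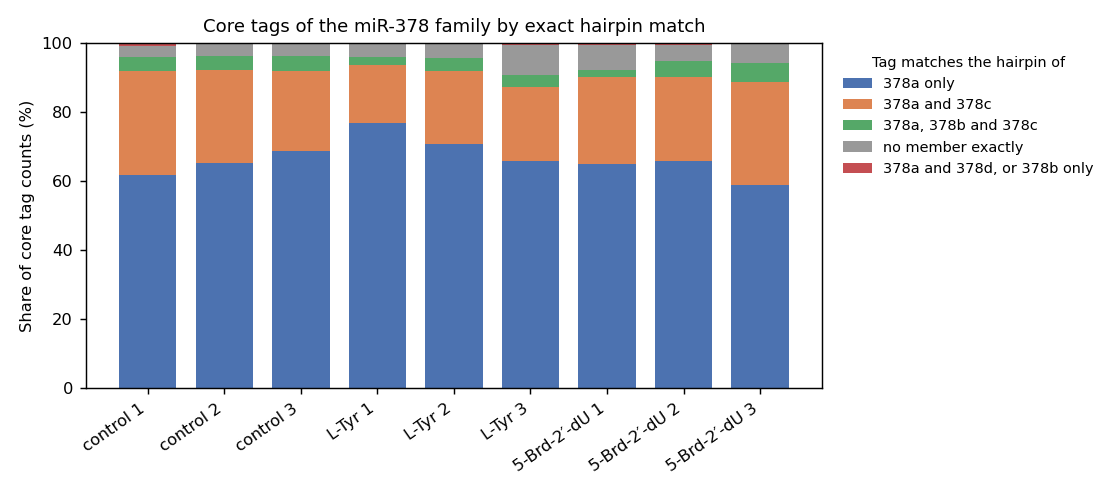
Share of core tag counts (y axis, %) by the member hairpins a tag matches exactly, 1 stacked bar per library. Sequences of mmu-mir-378a alone are the largest class in each library, and the class shared by mmu-mir-378a and mmu-mir-378c is smallest in the 3 libraries with L-Tyr, at 16.7 to 21.3%.

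Placed on NCBIM37 (mm9), the build named for these data, each hairpin had 1 exact location. mmu-mir-378b lies on chromosome 11 from 88166275 to 88166366, plus strand, within an intron of Msi2, a gene on the minus strand. mmu-mir-378c lies on chromosome 14 from 47574505 to 47574603, minus strand, within an intron of Samd4, a gene on the plus strand. mmu-mir-378d lies on chromosome 10 from 126147338 to 126147447, minus strand, and in GENCODE M1 it overlaps no gene other than a miRNA gene.

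mmu-mir-378a, placed by its tags, lies on chromosome 18 from 61557489 to 61557554, minus strand. It is within an intron of Ppargc1b on the same strand, the only member hairpin in the sense orientation of a protein-coding host.

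The mmu-mir-378a 3p tags were spread over start and end positions. Of the counts of its 42 tags, 97.1% ± 0.503 in control cells, 96.1% ± 1.72 with L-Tyr and 97.5% ± 0.349 with 5-Brd-2′-dU ended at position 62, 63 or 64 of the hairpin (SD, n = 3). Within this range the ends, taken over all starts, were not alike in the groups. Position 64 alone held 46.2, 44.4 and 43.8% in control cells, 57.3, 51.4 and 52.8% with L-Tyr, and 43.2, 40.4 and 41.8% with 5-Brd-2′-dU. All libraries with L-Tyr lay above those of both other groups. Of exact matches from start 44 ending at 63 or 64, position 64 held 82.6, 73.4 and 73.6% in control cells. It held 83.6, 77.4 and 80.0% with L-Tyr, and 79.7, 66.0 and 69.9% with 5-Brd-2′-dU. From starts 45 to 48 it held 81.25, 74.1 and 70.9%, then 78.9, 86.7 and 65.8%, then 68.05, 66.15 and 71.7%. With the start so limited the groups overlapped, and the difference in ends was not tested. The most frequent start, 44, held only 31.3% of the mmu-mir-378a 3p counts over all libraries. Across 174 arms of other hairpins with a mean count of at least 50, the median share of the most frequent start was 41.5%, and 22 of the 174 lay below mmu-mir-378a 3p. Its most frequent end held 45.7%, beside a median of 56% in those arms, with 51 of the 174 below it. Its number of tags, 42, exceeded that of 169 of the 174. The 174 arms were not matched to it in depth, and it ranked 4th of 735 features by counts.

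In control cells the share of mmu-mir-378a 3p counts was 16.2% ± 2.71 at start 42, 21.8% ± 1.74 at start 43, 30.1% ± 1.62 at start 44 and 14.01% ± 2.04 at start 45. The tags at start 42 carry the seed of mature mmu-mir-378c and those at start 43 the seed of mature mmu-mir-378b, while those at start 44 carry neither. Of all core tag counts, 24.9% had the first of these seeds and 19.3% the second, and 0 had the seed of mmu-mir-378d. The 20 nt tag at start 42 matches the hairpins of mmu-mir-378a and mmu-mir-378c alike, so its seed is not particular to mmu-mir-378c. No mature sequence of mmu-mir-378a was at hand, and which of these starts is its mature 5′ end is not shown here.

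Tags at start 42 were 19.0, 15.8 and 13.6% of the mmu-mir-378a 3p counts in control cells, 9.27, 11.9 and 12.3% with L-Tyr, and 14.04, 14.6 and 18.2% with 5-Brd-2′-dU. The libraries with L-Tyr lay below those of both other groups. The difference of the means between L-Tyr and control was -5.0 percentage points, with an exact two-sided permutation p of 0.1, the smallest that 3 against 3 libraries allow. The mean start number was 44.05 ± 0.0581 in control cells, 44.28 ± 0.0388 with L-Tyr and 44.03 ± 0.126 with 5-Brd-2′-dU, and L-Tyr did not overlap with the others (exact permutation p = 0.1 each). This mean is computed from the same counts as the share at start 42 and is not a separate result. Starts and ends are tied as well, since no tag exceeds 20 nt and a tag at start 42 cannot end beyond 62. The lower share at start 42 is therefore not independent of the higher share of ends at 64 with L-Tyr. Whether the starts or the ends of the molecules differed was not tested. In the test of single tags, the 20 nt tag at start 42 gave a log2 fold change of -0.62 ± 0.24 (SE) for L-Tyr relative to control, with an unadjusted p of 0.0254 and an adjusted p of 0.428 (edgeR). The same sequence held 10741 of the 12393 counts of mmu-mir-378c, and 21364 of the 21887 counts of the class shared by mmu-mir-378a and mmu-mir-378c. The lower values of these with L-Tyr thus rest largely on 1 sequence.

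**Figure D4:**
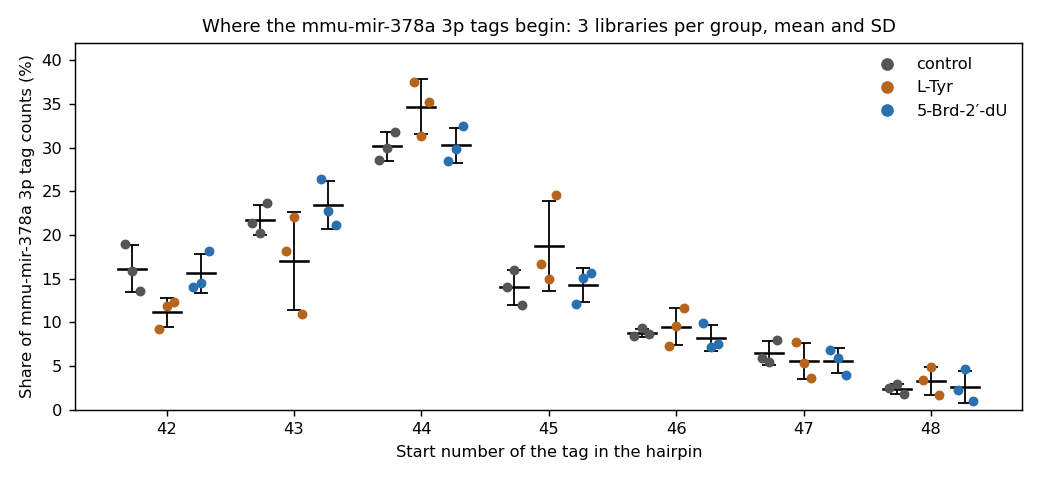
Share of mmu-mir-378a 3p tag counts (y axis, %) by start number in the hairpin (x axis), each point 1 library, with the mean and SD of 3 libraries in black. Start 44 is the most frequent in each group, and at start 42 the 3 libraries with L-Tyr, at 9.27 to 12.3%, lie below the other 6.

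The lengths of the mmu-mir-378a 3p tags did not separate the groups. Tags of 20 nt, the longest that the table holds, made up 63.6, 58.6 and 60.2% of its counts in control cells, 60.4, 58.8 and 53.9% with L-Tyr, and 63.5, 56.9 and 62.9% with 5-Brd-2′-dU. The exact two-sided permutation p was 0.5 for L-Tyr relative to control, 1 for 5-Brd-2′-dU relative to control and 0.3 between the exposures. Tags of 19 nt followed with 18.6% ± 1.008 in control cells, 20.02% ± 1.72 with L-Tyr and 18.9% ± 3.32 with 5-Brd-2′-dU. The mean tag length was 19.3 ± 0.0468, 19.2 ± 0.0257 and 19.3 ± 0.109 nt in that order, and since no tag exceeds 20 nt the length of longer reads is not shown by the table.

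The 5p arm made up 1.94, 1.95 and 3.19% of the mmu-mir-378a counts in control cells, 2.15, 2.04 and 2.34% with L-Tyr, and 2.34, 2.38 and 2.81% with 5-Brd-2′-dU. Replicate 3 of the controls was the highest of the 9 libraries. Relative to control, the exact two-sided permutation p was 1 with L-Tyr and 0.6 with 5-Brd-2′-dU. The exposures gave 0.1, with a difference of 0.33 percentage points, which became 0.18 without replicate 3 of 5-Brd-2′-dU. Without replicate 3 of the controls, the difference of L-Tyr from control changed from -0.18 to 0.24 percentage points. Within the 5p arm, tags of 20 nt were 78.0% ± 14.3 of the counts in control cells, 59.5% ± 16.3 with L-Tyr and 52.4% ± 13.95 with 5-Brd-2′-dU, from 107 to 362 counts per library, and all 3 libraries with 5-Brd-2′-dU lay below the controls (exact p = 0.1).

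Over these measures of arm, length and start, 69 exact tests were run. The groups compared did not overlap in 11 of the 69. The lowest p was 0.1, the smallest possible, and the lowest value after Benjamini-Hochberg adjustment was 0.627, so no measure passed.

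Single tags were also compared with edgeR's quasi-likelihood test, over all entries of the table that passed its filter. Of the 97 member tags, 36 could be tested for L-Tyr relative to control, 41 for 5-Brd-2′-dU relative to control and 35 between the exposures. None had an adjusted p under 0.05 with edgeR, which called 0.0796%, 0% and 0.162% of all entries in that order, or with DESeq2, which called 2.67%, 1.98% and 2.56%. For 5-Brd-2′-dU relative to control, where edgeR called 0 of 1488 entries, DESeq2 called 37. The median log2 fold change of the member tags tested was -0.20, 0.023 and 0.15, beside -0.13, -0.0055 and 0.031 over all entries. At an unadjusted p under 0.05 there were 2 member tags lower with L-Tyr, 1 higher with 5-Brd-2′-dU, and 1 lower with 5-Brd-2′-dU than with L-Tyr, beside 121 of 1256, 156 of 1488 and 88 of 1234 of all entries in either direction. The 2 tags lower with L-Tyr were 1 sequence, the 20 nt sequence listed at start 42 of mmu-mir-378a and start 3 of mmu-mir-378c.

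The most abundant tag of the family was the 20 nt tag at start 44, an exact match to mmu-mir-378a with 16510 counts. Its level was 7886, 6546 and 7184 CPM in control cells, 10785, 6919 and 8340 CPM with L-Tyr, and 5426, 6236 and 5838 CPM with 5-Brd-2′-dU. All 3 libraries with 5-Brd-2′-dU lay below the other 6. The share of all tags that separated in this way was not determined. The log2 fold change was -0.28 ± 0.25 (SE) for 5-Brd-2′-dU relative to control (adjusted p = 0.808, edgeR), -0.53 ± 0.27 relative to L-Tyr (adjusted p = 0.794) and 0.23 ± 0.22 for L-Tyr relative to control (adjusted p = 0.887). Without replicate 1 of L-Tyr, its highest library, the last value was -0.0020.

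The tag with the lowest unadjusted p of the family was the C20A form at the same start, 20 nt long and 1 base different from the most abundant tag. It had 28, 72 and 28 counts in control cells, 9, 92 and 92 with L-Tyr, and 93, 204 and 262 with 5-Brd-2′-dU. In CPM, control cells were at 138, 165 and 124, cells with L-Tyr at 57.6, 345 and 494, and cells with 5-Brd-2′-dU at 541, 463 and 918. The controls lay below all libraries with 5-Brd-2′-dU, and those with L-Tyr ran from below the controls to within the range of 5-Brd-2′-dU. Its log2 fold change for 5-Brd-2′-dU relative to control was 2.19 ± 0.53 (SE, n = 3) with an unadjusted p of 0.00196, which did not pass after adjustment with edgeR (adjusted p = 0.127) or with DESeq2 (adjusted p = 0.0508). Without replicate 3 of 5-Brd-2′-dU it was 1.78 ± 0.61 (adjusted p = 0.433, edgeR). How many other tags of the table separated these groups was not determined.

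This tag was 1 of 8 of mmu-mir-378a 3p that matched the hairpin up to a last base, or last 2 bases, of A that the hairpin does not encode, a set put together after its values had been seen and given here with no test. A further tag with C19T and T20A at start 46, with 23 counts, ended in such an A after another difference and was not in the set. The 8 tags began at starts 44, 45 and 46, and 4 of them had the C20A, C19A or C19A C20A forms at starts 44 and 45. Together they made up 1.89, 2.98 and 2.86% of the mmu-mir-378a 3p counts in control cells, 3.46, 3.501 and 6.60% with L-Tyr, and 7.76, 4.11 and 4.95% with 5-Brd-2′-dU. Every library of either exposure lay above every control. The same held for all mmu-mir-378a 3p tags that differ from the hairpin, of which these 8 are a part. Those were 3.16 to 3.85% of the counts in control cells, 4.05 to 9.05% with L-Tyr and 4.94 to 7.76% with 5-Brd-2′-dU. Arms of other hairpins were not examined for this. In CPM the 8 tags stood at 821 ± 145 in control cells, 1435 ± 544 with L-Tyr and 1615 ± 347 with 5-Brd-2′-dU (SD, n = 3).

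Among the tags from starts 44 to 46 that ended at position 64, the forms with the A were 2.52, 2.71 and 3.41% in control cells, 3.43, 3.00 and 7.68% with L-Tyr, and 13.8, 8.73 and 10.5% with 5-Brd-2′-dU. Here 5-Brd-2′-dU lay above all other libraries. This subset was also chosen after its values had been seen, and it leaves out the tags that end beyond 64. It holds the C20A tag at start 44, named for its low p in this same comparison, so the separation is not independent of that choice. The 8 tags did not move as 1. The C20A tag at start 45 had 28, 93 and 62 counts in control cells and 30, 103 and 7 with 5-Brd-2′-dU, with a log2 fold change of -0.51 ± 0.91 (adjusted p = 0.920, edgeR), and the C18A tag at start 46 had 22, 39 and 52 counts in control cells, 28, 0 and 1 with L-Tyr and 114, 78 and 31 with 5-Brd-2′-dU.

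**Figure D5:**
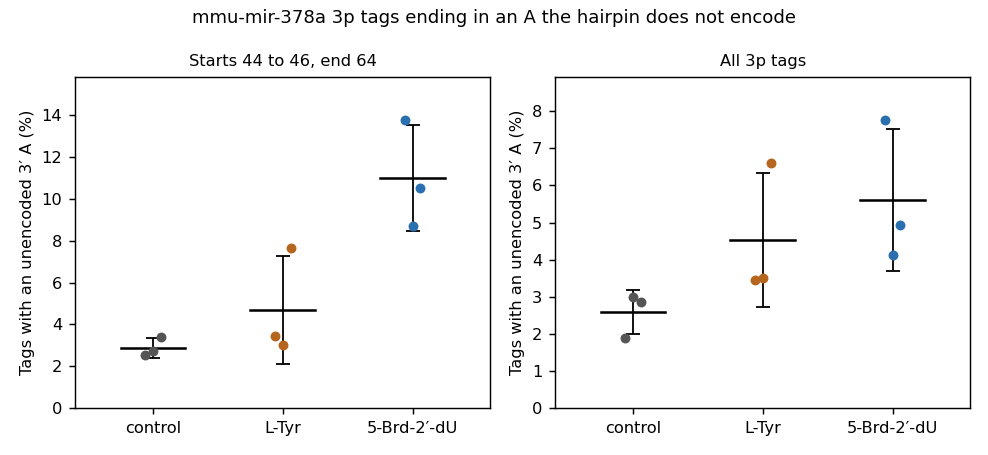
Share of tags that match the hairpin up to 1 or 2 final A bases it does not encode (y axis, %, from 0), among mmu-mir-378a tags from starts 44 to 46 ending at position 64 (left) and among all its 3p tags (right), with each library as a point and the mean and SD of 3 in black. Controls lie at 2.52 to 3.41% on the left and 1.89 to 2.98% on the right, and the libraries with 5-Brd-2′-dU at 8.73 to 13.8% and 4.11 to 7.76%. Both sets of tags were chosen after seeing the data.

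Over the 9 libraries, the arms whose log2 CPM followed that of mmu-mir-378a 3p most closely were mmu-mir-181a-1 3p (Pearson's r = 0.757), mmu-mir-339 3p (0.752), mmu-mir-30c-2 3p (0.742), mmu-mir-24-2 5p (0.690) and mmu-mir-1983 3p (0.688), of 179 arms compared. The most opposite were mmu-mir-872 5p (-0.725), mmu-let-7b 5p (-0.710) and mmu-mir-183 5p (-0.613). The opposite arm of its own hairpin, mmu-mir-378a 5p, had r = 0.271. These values describe 9 libraries that share their scaling, and mmu-mir-378a 3p itself varied over a narrow range.

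The study set miR-378-3p in a network for cells exposed to 5-Brd-2′-dU with 3 other miRNAs, whose arms in the table are mmu-mir-30d 5p, mmu-mir-99b 5p and the 3p arms of mmu-mir-129-1 and mmu-mir-129-2. It chose them on these samples, so their direction is not independent evidence. Among these 4 arms, mmu-mir-30d 5p and mmu-mir-129-2 3p rose with L-Tyr relative to control, by log2 fold changes of 0.98 ± 0.14 (SE, adjusted p = 0.00946, edgeR) and 2.16 ± 0.39 (adjusted p = 0.0202). mmu-mir-129-2 3p also rose with 5-Brd-2′-dU relative to control, by 1.64 ± 0.30 (adjusted p = 0.0227), while mmu-mir-30d 5p did not pass there, at 0.37 ± 0.22 (adjusted p = 0.405, edgeR), and none of the 4 passed between the exposures. mmu-mir-99b 5p and mmu-mir-129-1 3p did not pass in any comparison, with log2 fold changes of 0.67 ± 0.21 (adjusted p = 0.154, edgeR) and 1.64 ± 0.65 (adjusted p = 0.291) for L-Tyr and 1.12 ± 0.26 (adjusted p = 0.0616) and 0.71 ± 0.58 (adjusted p = 0.586) for the thymidine analog, each relative to control. The arm sum of mmu-mir-378a 3p passed in none of the 3 comparisons, as given above. The 2 mmu-mir-129 hairpins may share reads, so the split between them is uncertain.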

How the data were processed

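Reads of 17 to 35 nt, as the methods state, had been assigned against mm9 and miRBase 21 in version 1.0 of a BaseSpace app for small RNA, and the authors deposited the raw counts of 6414 entries, tags and names, for 9 libraries in 3 groups. Other deposited files hold these counts after normalization and the authors' own DESeq2 comparisons (fold changes and p-values) and were not used. Total counts per library were 144452 to 424122.

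The members and lists were chosen with earlier results of these data known. Entries were summed by hairpin and arm, and a mature name without an arm was given the arm with most of its hairpin's tag counts. Both the sums and the single entries of the whole table were fitted in R 4.3.3 with edgeR 4.0.16 (TMM factors, filterByExpr, quasi-likelihood F test) on the 6 libraries of each comparison, with Benjamini-Hochberg adjustment over all features and calls at an adjusted p under 0.05, and DESeq2 1.42.0 as the alternative. CPM used TMM factors of 0.748 to 1.15 from all 9 libraries. Shares were compared with exact two-sided permutation tests in scipy 1.17.1. Hairpins were matched exactly to NCBIM37 and GENCODE M1, with 3 of 4 members found in the RefSeq miRNA table and mmu-mir-378a placed by its tags and its 66 nt length. The fits were tested on simulated data.

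Named were every member and arm, the most abundant tag of each member arm, member tags with a mean count of at least 50, member tags called by edgeR or DESeq2 (none was), the 5 arms outside the family with the highest Pearson's r with mmu-mir-378a 3p and the 3 with the lowest (log2 CPM, prior count of 2, mean count of at least 50), and the network partners. Alternatives were other scalings, filters, arm boundaries of 30 and 40, tags listed under 1 hairpin, mature names left out, a joint fit of the 9 libraries, the replicate number as a block, DESeq2, and each library left out. Merging the core tags of all members, and the sets by exact match, end position and 3′ A, were chosen after seeing the data. The RT-qPCR and protein data of the study were not analysed here.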

Additional observations from a re-analysis of the deposited data

How the results depend on the processing

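No member arm and no member tag was called under any alternative run, whether scaling, filter, arm boundary, tool, replicate block, shared sequences or each library left out. In all, 605 values were computed for 42 results under alternatives. Of these, 522 were unchanged, 40 changed sign, 28 of them with 1 library left out, and 43 were counts of calls over the whole table that moved. Unchanged means the same direction and side of the threshold or, for counts of calls, an equal or close count. The shares could only keep their side, since their exact p cannot fall below 0.1. The 40 belonged to 14 results, none past a threshold before or after. For mmu-mir-378a 3p with L-Tyr relative to control, 0.012 on the log2 scale, the values were -0.012 in the joint fit of 9 libraries, -0.017 with the arm boundary at 30, -0.020 with no filter, -0.058 with tags listed under 1 hairpin, -0.070 with core tags merged, -0.095 without the most abundant entry, and -0.11 to 0.044 over the left-out libraries. For 5-Brd-2′-dU, left-out libraries gave -0.16 to 0.040 relative to control and -0.17 to 0.087 relative to L-Tyr, and merging the core tags gave 0.042 in the latter. For mmu-mir-378a 5p with 5-Brd-2′-dU relative to control, 0.028, the values were -0.020 in the joint fit, -0.027 with the boundary at 40, -0.0066 with a mean count of at least 50, and -0.048 to 0.26 over the left-out libraries. Scaled by the total count it was 0.075 for L-Tyr relative to control in place of -0.10 (-0.30 to 0.11 over the left-out libraries) and -0.069 between the exposures in place of 0.16. Left-out libraries moved the other results of 5-Brd-2′-dU relative to control from -0.55 to 0.22 for mmu-mir-378b 3p, -0.19 to 0.098 for mmu-mir-378c, -0.30 to 0.032 for the start 42 tag of mmu-mir-378a, -0.22 to 0.058 for its listing under mmu-mir-378c, -0.059 to 0.57 percentage points for the 5p share of mmu-mir-378a and -0.86 to 2.40 for the share of 20 nt tags. The 5p share for L-Tyr relative to control went from -0.39 to 0.24 percentage points over the left-out libraries, with 0.24 without replicate 3 of the controls. The most abundant tag of mmu-mir-378a 3p in that comparison went from -0.0020 to 0.31 on the log2 scale, with the lowest value without replicate 1 of L-Tyr. Scaling by the total count shifted the median of all arms from -0.090 to 0.068 for L-Tyr relative to control and from 0.083 to -0.11 between the exposures, and the values of mmu-mir-378a 3p from 0.012 to 0.16 and from -0.053 to -0.26. Restricted to tags listed under 1 hairpin, mmu-mir-378b 3p gave -2.25 ± 1.49 for L-Tyr relative to control in place of -0.65 ± 0.44, from fewer counts. The called arms went from 5 to 19, 1 to 50 and 0 to 30 over the settings other than left-out libraries, and the called entries from 0 to 48, 0 to 85 and 1 to 47, in the order L-Tyr to control, 5-Brd-2′-dU to control and between the exposures. Left-out libraries gave 0 to 10, 1 to 14 and 0 to 5 called arms and 1 to 2, 0 to 14 and 0 to 3 called entries.

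The same replicate numbers gave no sign of pairing, as the correlation of deviations for same-numbered libraries was between -0.20 and 0.12. With 3 libraries per group this cannot settle whether they were paired. With a replicate block, the log2 fold change of mmu-mir-378a 3p was 0.010, -0.077 and -0.055 in the 3 comparisons. The called arms became 6, 1 and 0 in place of 6, 10 and 6, and no call on a member changed.

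Depth limits the low members. The 18 counts of mmu-mir-378d and the 113 counts of tags particular to mmu-mir-378b could not be compared between groups, and 3 against 3 libraries cannot give an exact p below 0.1.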
